A study of Arabidopsis thaliana with 88 samples.

Results

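Accession 6244 is 1 of 32 natural accessions of Arabidopsis thaliana, wild-collected inbred lines of a small selfing plant, whose leaf DNA was bisulfite-sequenced in 88 libraries. It has 2 of them, replicates 3 and 4. It was chosen for its low CHG methylation in transposable elements (TEs), and the 86 libraries of the other 31 accessions, each taken as the mean of its libraries, are the comparison. Because these values chose the accession, its levels and the counts of loci set apart in it are given as descriptions. No p-value is printed for them. Where an adjusted p under 0.05 is used, it only sorts single loci and is not read as significance. All plants carried their natural genotype, without transgene or treatment, and differed by accession. They grew on soil at 21 °C in long days, and mature leaves of rosettes with 14 leaves were taken from 2 to 3 plants of an accession. Replicate numbers name the growth round, and both 6244 libraries come from rounds 3 and 4, which hold 25 and 24 libraries of other accessions. 3 accessions have 1 library, 13 have 2, 5 have 3 and 11 have 4.

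Plants methylate cytosines that stand before a G (CG), before any other base and then a G (CHG), or before neither (CHH). CG methylation is copied at replication by MET1. CHG methylation is kept by CMT3, which reads a histone mark (H3K9 methylation) placed by SUVH4 and its relatives, which in turn bind methylated DNA. CHH methylation is laid down anew, by DRM2 guided by small RNAs at short elements and at the edges of long ones, and by CMT2 inside long heterochromatic elements. Silent TEs carry all of these, whereas transcribed genes often carry CG methylation alone, called gene-body methylation.

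The values are methylation levels per locus and library, fractions in the deposited tables and percentages here, taken over the gene body or over a 400 bp window at the promoter. Read counts do not come with them, so depth is unknown and no counting error can be given. A CHH level of exactly 1 was read as no data, an inference from the values; by it 20.3% and 20.5% of TE genes had no data in the 6244 libraries, where the other accession means ran from 2.62% to 24.4%, with a median of 20.5%. For TE fragments the shares were 28.9% and 29.9% in 6244, against a median of 27.6% elsewhere. CHG levels of exactly 1 were dropped as well, in all libraries, whereas unmethylated CHG readings were kept. Where reads are few, fully methylated CHG readings were thus lost and unmethylated ones were not, which can lower the CHG levels given here. The effect of this step alone was not tested. A level rests on loci with a value in both 6244 libraries and in at least 80% of all libraries. The spread given as ± is the SD between the 31 other accession means.

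CHG methylation of TE genes, the annotated genes of transposons such as polymerases and transposases, was lower in 6244 than in every other accession on average, while their CG methylation was that of a middling accession. Over 2317 of 3901 TE genes, the mean gene-body CHG level was 27.4% and 27.6% in the 2 libraries of 6244. The other 31 accessions averaged 34.5% ± 3.36, with a lowest of 27.9%, a median of 34.3% and a highest of 40.8%. 6244 thus lay 20.5% below the mean of the others in relative terms. Its neighbour in that order was accession 10012, whose 3 libraries ran from 27.5% to 28.2% and so overlapped those of 6244; the gap between these accessions was smaller than the SD between libraries of 1 accession, 1.01 percentage points. The next accessions, 9518 and 6076, stood at 29.5% and 30.3%.

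The filter on missing values was applied in each context, so the sets of TE genes differ somewhat. Over 2449 TE genes the CG level was 75.6% and 74.8% in 6244 against 74.9% ± 2.99 elsewhere, the 13th lowest of 32. Over 2450 TE genes the CHH level was 6.71% and 6.27% against 7.13% ± 0.923, the 10th lowest. Both lay well inside the range of the others. Accession 10012, by contrast, was lowest in CHH as well, at 5.22%, and 7th lowest in CG. Within growth round 3, 6244 was below all 25 other libraries in TE gene CHG, with a difference of -6.47 points from their mean, and within round 4 it was below all 24, with a difference of -7.04 points.

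**Figure D1:**
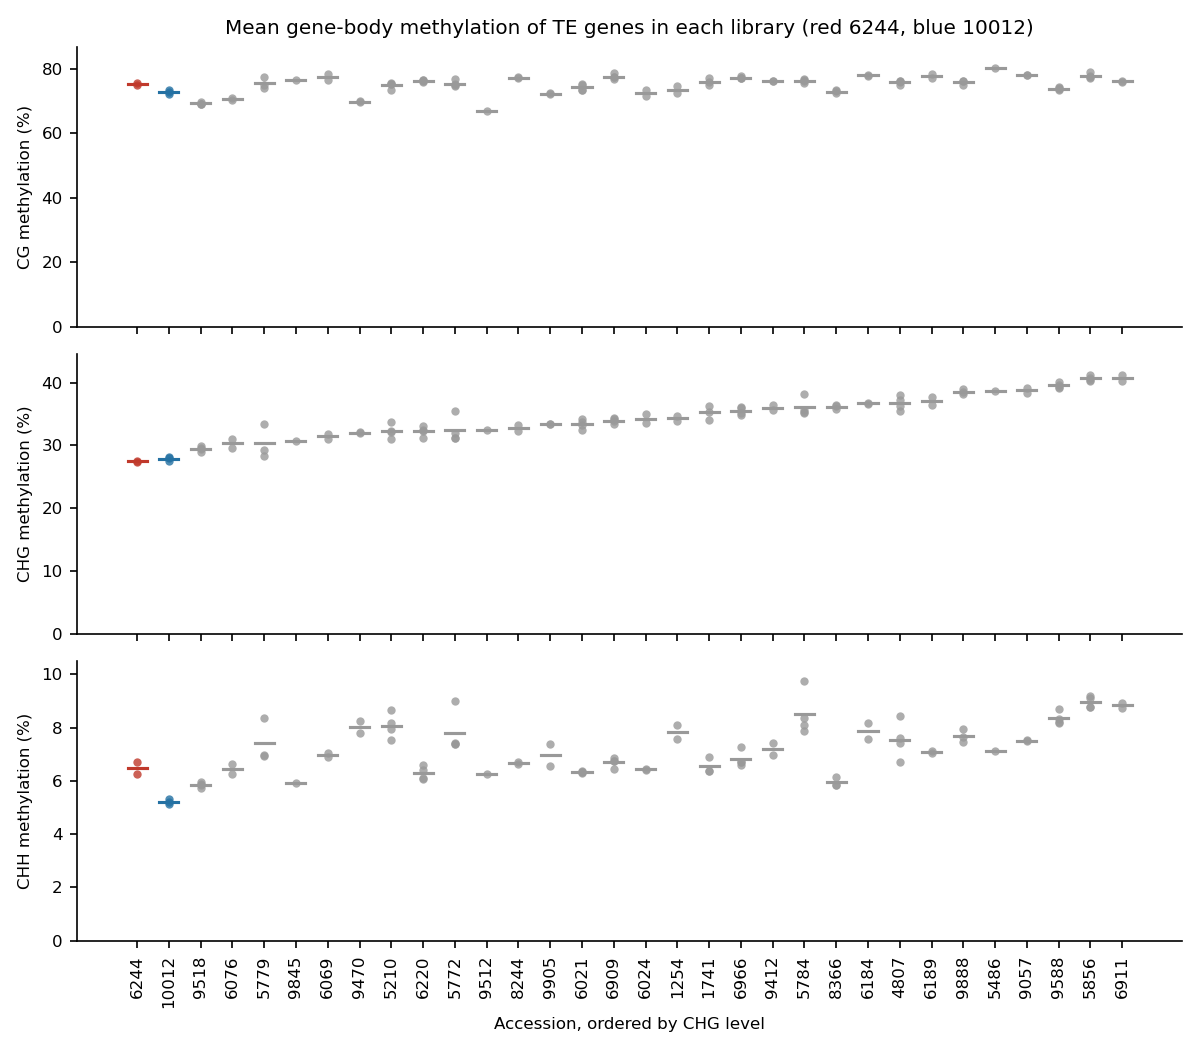
Mean gene-body methylation of TE genes in percent (vertical axes, 1 panel for each context) for each of the 88 libraries (points), grouped by accession and ordered by CHG level, with bars at the accession means. The 2 libraries of 6244 (red) sit at 27.4% and 27.6% in CHG, beside those of 10012 (blue), and inside the range of the others in CG and CHH.

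The low CHG was not limited to TE genes. TE fragments, the individual annotated stretches of TE sequence, many of them short, had CHG levels of 13.7% and 13.8% in 6244 against 16.5% ± 1.65 elsewhere (10424 of 31189 fragments), with only 10012 lower at 12.9%. Intergenic lncRNA loci, which encode transcripts without a protein product away from genes, had 7.65% and 7.76% against 9.70% ± 1.19 (1483 of 2152 loci), again with 10012 alone lower at 6.81%. Antisense lncRNA loci, transcribed from the opposite strand of a protein-coding gene, had 1.04% and 1.01% against 1.31% ± 0.119 (7770 of 8120 loci). Protein-coding genes had 1.12% and 1.1% against 1.39% ± 0.145 (25775 of 26928 genes). In both of these classes 6244 was the 2nd lowest of 32. In relative terms the deficits were alike, at 16.7% of the others' mean for TE fragments, 20.6% for intergenic lncRNA, 21.4% for antisense lncRNA and 20.3% for protein-coding genes. The TE fragment value depends on the handling of missing data. With the deposited values left as they are, over all 31189 fragments, the difference was -0.0753 points, in place of -2.75. The reading of exact 1 and the set of fragments both changed there, and their effects were not told apart. Loci at 0 in 6244 also bear on the classes with little CHG. Over loci above 0 in both 6244 libraries, a setting added after the data were seen that raises 6244 by its construction, the difference was still -6.54 points in TE genes and -2.11 in TE fragments. It was 0.189 points in protein-coding genes, 0.0136 in intergenic and 0.681 in antisense lncRNA loci, above the others in place of below.

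Other noncoding loci, of which 299 of 443 overlap a TE gene, had 17.5% and 17.6% against 22.6% ± 2.37. The transcripts that the authors annotated over TE genes had 27.2% and 27.3% against 34.1% ± 3.24, where 10012 stood at 27.3% as well. In these 2 classes 6244 was the lowest of 32. In promoter windows the picture was the same for TE genes, with 22.3% and 22.9% against 29.2% ± 3.12, below the lowest other accession mean of 22.9% when its libraries are averaged to 22.6%. Promoters of protein-coding genes had 1.02% and 1.01% against 1.22% ± 0.107, and those of intergenic lncRNA loci 5.93% and 5.64% against 7.39% ± 0.976.

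The other contexts differed from CHG in sign or in size, depending on the class. Each context rests on its own set of loci with values. CG methylation in the bodies of protein-coding genes was among the highest, at 18.5% and 18% in 6244 against 13.5% ± 2.37, a median of 13.5% and a highest of 19.0% in accession 6184. Antisense lncRNA loci, which share sequence with those genes, had 16.6% and 16.3% against 12.5% ± 2.11. Only 2 accessions were higher in each of these classes. CHH methylation of TE fragments was 5.09% and 4.95% against 4.52% ± 0.501, and only 5 accessions were higher. This CHH level covers 15493 fragments, whereas the CHG level covers 10424, so the shifts are not at one set of fragments. The median over fragments differed the other way, by -0.321 points. CHH methylation of intergenic lncRNA loci was 3.19% and 3.01% against 2.81% ± 0.342 (1583 loci), with 5 accessions higher. Their CG level was 27.6% and 27.8% against 29.2% ± 1.95, the 7th lowest.

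**Figure D2:**
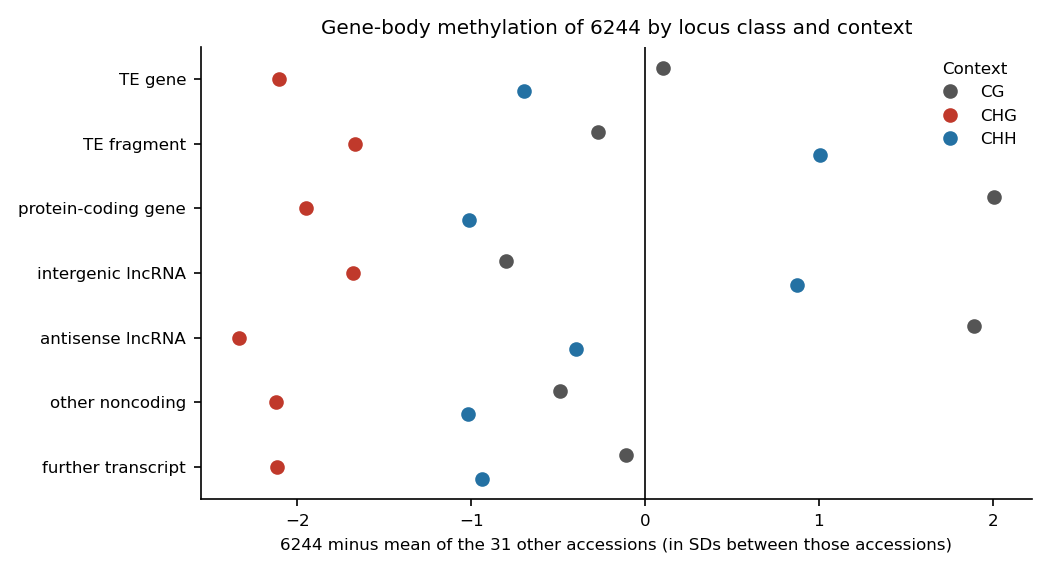
Gene-body methylation of 6244 minus the mean of the 31 other accessions, in SDs between those accessions (horizontal axis), for 7 locus classes and 3 contexts. CHG (red) lies between -2.34 and -1.67 SDs in these 7 classes, while CG (grey) is 2.01 SDs above them in protein-coding genes and 0.105 SDs above them in TE genes.

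The deficit was spread over most TE genes rather than carried by a few. At 1868 of 2317 TE genes (80.6%) the CHG level in 6244 was below the median of the other accessions, and at 385 it was above. The median difference was -7.31 points, with quartiles of -12.3 and -1.29 points. In CG the TE genes were split, with 1074 below and 1349 above the others' median. 6244 had the lowest CHG level of all accessions at 217 TE genes, more than any other accession; 10012 did so at 155, and the accession in the middle of that ranking at 34. In protein-coding genes there was no such shift of the typical gene, since 10758 lay below and 10750 above the others' median in CHG.

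Among protein-coding genes the deficit in points was larger in those that are CHG-methylated elsewhere. A low level elsewhere leaves little room for a deficit in points, so this order is partly set in advance. The 25000 genes with under 10% CHG elsewhere had 0.548% and 0.512% against 0.620% ± 0.0665. The 190 genes with 20% to 30% elsewhere had 16.2% and 16.6% against 25% ± 3.83, and the 98 genes with 40% to 50% elsewhere had 33.0% and 34.5% against 44.1% ± 4.06. In all 3 of these groups 6244 was the lowest of 32. Genes that overlap a TE fragment had 2.28% and 2.24% against 2.96% ± 0.324, lowest of 32, and genes that overlap none had 0.926% and 0.910% against 1.13% ± 0.120, the 3rd lowest.

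By position, TE genes in TE-rich stretches, 500 kb bins in which TE fragments outnumber protein-coding genes, had 28.2% and 28.5% against 35.8% ± 3.53 (2128 TE genes, lowest of 32). In gene-rich bins the 188 TE genes had 18.2% and 17.3% against 20.3% ± 1.96, the 4th lowest. The ratio of 6244 to the others was 0.791 in the former and 0.876 in the latter. By chromosome the ratio was lowest on chromosome 4, at 0.749, where the 460 TE genes had 26.6% in both libraries against 35.5% ± 3.85, and highest on chromosome 1, at 0.825. TE genes under 500 bp, from there to 2 kb, and from 2 kb up had ratios of 0.781, 0.792 and 0.799, close to each other. Intergenic lncRNA loci over a TE fragment had 13.8% and 14.4% against 17.3% ± 2.09, and those over none had 4.55% and 4.43% against 5.99% ± 0.784. The loci over none were also the 2nd lowest of 32 in CG, at a mean of 14.9% against 17.3% ± 1.49.

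The relative size of the CHG deficit in TE fragments followed the CHH level that a TE has in the other accessions. TE fragments with a CHH level of 1% to 2% elsewhere had CHG levels of 3.84% and 3.50% in 6244 against 6.31% ± 1.13 (994 fragments), lowest of 32 and 0.582 of the others' mean. Those with 5% to 10% had 26.8% and 27.5% against 33.0% ± 3.30 (2484 fragments), a ratio of 0.822. Those with 10% to 15% had 37.9% and 39.2% against 42.1% ± 3.07, a ratio of 0.916, and those with 15% to 20% had 45.6% and 41.4% against 42.9% ± 2.66, a ratio of 1.01. In the 120 fragments with 20% or more the order was turned, with 53.1% and 53.9% against 47.5% ± 3.82 and an others' highest of 54.2%, so that only 2 accessions were higher. From 1% CHH upward, the ratio was thus higher in each next group. Below 1% it was 0.607.

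CHH methylation was high in the same group. In those 120 fragments it was 33.2% and 34.1% in 6244, above all other accession means, which ran from 18.3% to 30.2% with a mean of 25.3% ± 3.15. In fragments of 1% to 2% it was 1.2% and 1.37% against 1.44% ± 0.177. Accession 10012 did not share this turn, since its CHG level in the 120 fragments was 38.9%, the lowest of 32, and its CHH level 22.2%. The 64 of these fragments in TE-rich bins had CHG levels of 54.1% and 54.9% in 6244 against 44.7% ± 4.03, above all other accessions, and the 56 in gene-rich bins had 52.0% and 52.7% against 50.7% ± 4.11.

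The order by CHH held among fragments of like CHG level. Where the others' CHG level was between 40% and 60%, fragments of 5% to 10% CHH had CHG levels of 36.5% and 37.1% in 6244 against 44.9% ± 3.79, and those of 20% or more had 52.5% and 56.4% against 48.9% ± 3.91. Placing fragments by the mean of all 32 accessions, an alternative chosen after the data were seen, gave 53.6% against 46.9% ± 3.68 for the highest group. TE genes followed the order in part. The 140 under 1% CHH elsewhere had CHG levels of 1.52% and 1.18% against 1.21% ± 0.463, with no deficit. The 80 TE genes of 1% to 2% CHH elsewhere had CHG levels of 3.8% and 5.47% against 9.63% ± 1.69, and the 409 of 10% to 15% had 41.4% and 42.0% against 47.9% ± 3.51.

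**Figure D3:**
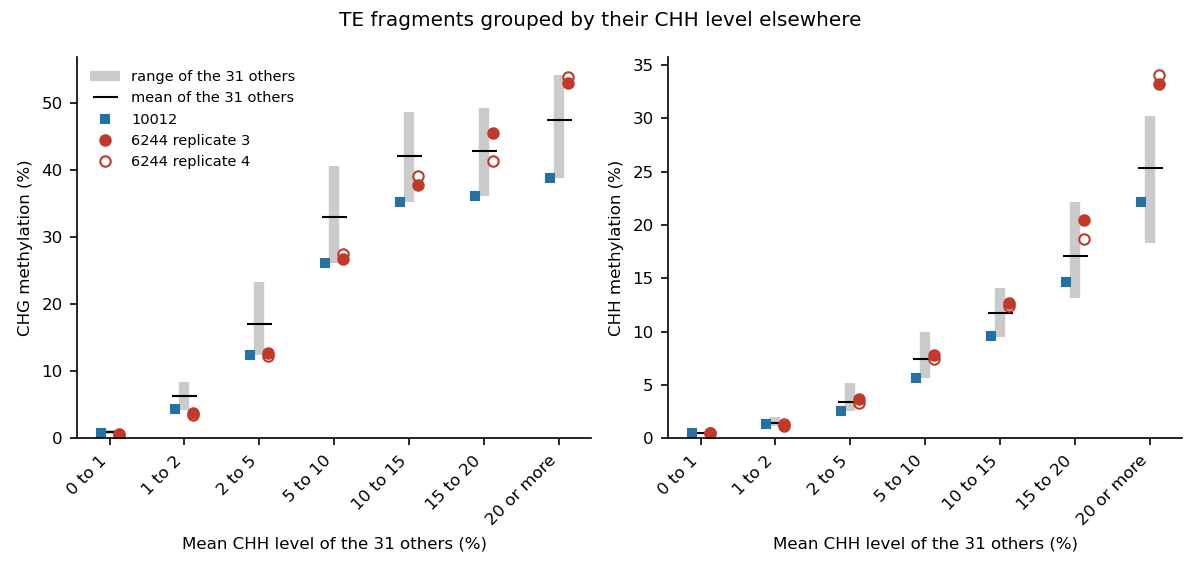
CHG (left) and CHH (right) methylation in percent of TE fragments, grouped along the horizontal axis by the mean CHH level of the 31 other accessions. Red points are the libraries of 6244, blue squares 10012, grey bars the range and black dashes the mean of the others; 6244 is at the bottom of the range in CHG at low CHH levels and at 53.1% and 53.9% in CHG and 33.2% and 34.1% in CHH at the highest level.

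Single loci were set apart in 2 ways, with both libraries of 6244 beyond every other accession mean, or with limma's moderated test on accession means at an adjusted p under 0.05. The contrast is the one that chose the accession, so nothing is read from these shares. Of 38516 gene bodies in the Araport11 annotation with CHG values, 330 (0.857%) were below all other accessions and 212 (0.55%) above. They were 106 TE genes, 157 TE fragments and 67 protein-coding genes below, and 9, 40 and 163 above. The limma test called 28 lower (0.0727%) and 284 higher (0.737%), of which 13 and 4 were TE genes, 13 and 91 TE fragments and 2 and 189 protein-coding genes. The 91 TE fragments called higher had a median CHG level of 10% in 6244 and 0% elsewhere. For the 189 protein-coding genes these medians were 2.74% and 0%. A locus near 0 elsewhere can be called higher but has no room to be lower, so the lower and higher counts are not compared. In the authors' annotation of 33803 gene bodies, 133 (0.393%) were below and 198 (0.586%) above all others, with 9 (0.0266%) called lower and 274 (0.811%) higher. Those below included 6 of 1483 intergenic lncRNA loci (0.405%), near the share over all gene bodies of this annotation. They also included 7 of 7770 antisense lncRNA loci (0.0901%), under that share.

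The 106 TE genes with CHG below all other accessions all lay in TE-rich bins, as do 91.9% of all TE genes with values. Their median CHG level was 19.3% in 6244 and 37.4% elsewhere. 33 of them (31.1%) lay on chromosome 4, which holds 19.9% of the TE genes with values, and 10 on chromosome 1. CHH was below the others' median at 99 of the 106, against 64.2% of all TE genes, and CG at 61, against 43.9%, with median differences of -1.91 points in CHH and -1.39 points in CG. At 94 of them CHG was above 0 in both libraries and at 10 it was 0 in both. Of the 157 TE fragments, 154 lay in TE-rich bins, where 67.2% of all fragments with values lie. A locus can be below all others only where every other accession is above 0. The selected TE genes and fragments thus differ from their class by the selection, and nothing is read from these shares. A level of 0 can rest on few reads, or on reads from other copies where the sequence is absent from 6244; neither was tested. Several loci at 0 in CHG had CG levels far apart in the 2 libraries, as given beside them. CHG readings of 0 were kept while fully methylated ones were dropped, and what this did to the loci at 0 was not tested.

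AT3G29480 (TE gene, TAIR10 chromosome 3, 11329730 to 11333533, + strand) had the widest gap to the others' median. It was at 0% CHG in both libraries, while the others ran from 24.2% to 59.5% with a median of 50.9%. Its CG level was 80% and 33.3%. AT3G38525 (chromosome 3, 14152324 to 14154341, +) was at 0% against a lowest of 32.7% and a median of 49.1%, and its CG level was 100% and 66.7%. AT3G37820 (chromosome 3, 14146317 to 14151204, +), its near neighbour, was at 0% against a lowest of 25.6% and a median of 45.3%, with CG at 100% and 20%. AT3G32880 (chromosome 3, 13404998 to 13406508, -) was at 0% against a lowest of 16.7% and a median of 43.9%, with CG at 100% and 83.3%. All 4 kept some CG methylation in both libraries while CHG read 0.

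The other 2 of the first 6 TE genes were near 0 in CHG and below the others' range in CG as well. AT2G13480 (chromosome 2, 5621672 to 5622400, -) was at 0% CHG in both libraries against 6.49% to 76.0% and a median of 49.5%. Its CG level was 3.85% and 0% against 8.04% to 100%, and its CHH level 0.478% and 0% against 1.17% to 20.8%. AT5G28053 (chromosome 5, 10050552 to 10056352, +), a TE gene of 5801 bp, had CHG levels of 0.899% and 0.719% against 37.9% to 81.8% and a median of 49.4%. Its CG level was 45.6% and 34.6%, below the lowest other accession at 60.3%, and its CHH level was 0.616% and 0.265% against a median of 10.9%. The TE fragment that spans it, AT5TE36620, led the fragments with the same CHG values.

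After AT5G28053, the 4 TE genes with the widest gaps among the 94 above 0 in both libraries are named here, a choice made after their values were seen. AT4G08765 (chromosome 4, 5591699 to 5596278, +) had CHG levels of 0.643% and 0.965% against 27.9% to 50.2%, CG levels of 28.0% and 23.1% against 79.6% to 92.2%, and CHH levels of 0.617% and 0.677% against 5.20% to 11.3%. It was outside the range of all other accessions in all 3 contexts, and its libraries agreed to within 5 points. AT5G35756 (chromosome 5, 13926082 to 13931885, -) kept more, with CHG levels of 23.9% and 17.4% against 39.0% to 61.2%, CG levels of 54.1% and 50.2% against 70.3% to 89.7%, and CHH levels of 3.77% and 2.78% against 7.51% to 17.1%. AT4G06708 had CHG levels of 20% and 25% against 30.4% to 69.0%, with CG at 100% and 50% against 64.7% to 93.8%. AT5G26350 had 15% and 3.33% against 22.2% to 75%, with CG at 81.8% and 94.4% against 78.4% to 100%. So 2 of these 4 were below the others in CG as well, and 2 were not.

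The other named TE fragments of 500 bp or more were mostly at 0. AT1TE46780 (chromosome 1, 14259093 to 14261082), over the TE gene AT1G37735, was at 0% CHG and 0% CG in both libraries, against lowest values of 27.5% and 50% elsewhere. AT3TE58010 overlaps AT3G37820 and repeats its CHG values. AT3TE51300 (chromosome 3, 12401406 to 12403742) had CHG levels of 10% and 0% against 20.3% to 80%, with CG at 94.7% and 90.9%. AT3TE57110 (chromosome 3, 13902136 to 13905745) was at 0% CHG against 11.1% to 71.2%, with CG at 100% and 20%.

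All 6 intergenic lncRNA loci below the other accessions are named, in the order of their gap. CUFF_NC.6256 (chromosome 3, 14210098 to 14214779, +), which spans a row of TE fragments, was at 0% CHG in both libraries against 6.67% to 63.3%, with CG at 88.9% and 70%. CUFF_NC.7052 (chromosome 3, 22364925 to 22366400, +), over no TE fragment, was at 0% against 5.56% to 61.2%, with CG at 44.8% and 35.6% against a median of 73.6%. CUFF_NC.3326 (chromosome 2, 4329354 to 4329892, +) had 4.00% and 0% against 11.1% to 42.9%. In CG all 3 loci lay inside the range of the others.

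CUFF_NC.7488 (chromosome 4, 3330623 to 3332367, +) had 6.15% and 0% CHG against 14.9% to 40.9%. CUFF_NC.7567 (chromosome 4, 4996294 to 4996969, -) had 0% and 6.67% against 8.22% to 66.7%. CUFF_NC.10122 (chromosome 5, 13682426 to 13684910, -) had 9.62% and 13.9% against 14.8% to 48.4%, with CG at 80.6% and 82.6%. These 3 had smaller gaps to the others' median than the first 3. None of the 6 was called by limma, whereas 1 other intergenic locus was.

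Of the 7 antisense lncRNA loci below the others in CHG, 5 had CG below the others' median, as did 4 of the 6 intergenic loci. Over all loci with values, this held for 21.1% of antisense and 27.5% of intergenic loci. Loci below the others in CHG are ones with CHG methylation in every other accession, so nothing is read from these counts. The 3 antisense loci with the widest gaps are named. CUFF_NC.10949 (chromosome 5, 22513768 to 22514592, +), over the protein-coding gene AT5G55570 and the TE fragment AT5TE81045, had CHG levels of 0.990% and 0% against 4.47% to 57.0%, and CG levels of 17.6% and 7.55% against a median of 85.8%. CUFF_NC.10832 (chromosome 5, 21164847 to 21165852, -), over AT5G52070 and a TE fragment, had CHG levels of 2.17% and 0% against 3.21% to 54.3% and CG levels of 1.22% and 8.33% against 24.1% to 86.1%. In CG, CUFF_NC.10832 was below all others, whereas CUFF_NC.10949 was not, since the lowest other accession stood at 5.44%. CUFF_NC.6135 (chromosome 3, 12447044 to 12447540, -), over AT3G30770, had CHG levels of 0% and 14.3% against 18.4% to 55.5%, with CG at 87.5% and 66.7%, inside the range of the others.

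The protein-coding genes with the widest gaps are named. A wide gap needs a high median elsewhere, since a level cannot fall below 0. AT2G29850 (chromosome 2, 12734725 to 12736394, +) was at 0% CHG in both libraries against 16.3% to 66.4%, with CG at 75% and 100%. AT3G30820 (chromosome 3, 12529843 to 12531235, +) had 5.56% and 9.09% against 19.0% to 53.8%, with CG at 76.9% and 77.8%. Those 2 were the protein-coding genes that limma called lower. The CG level of both lay inside the range of the others.

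AT2G35280 had CHG levels of 12.5% and 0% against 13.9% to 58.2%. AT2G29605 had 16.3% and 10% against 20.2% to 58.0%. AT2G05752 had 10.3% and 0% against 15.8% to 49.4%, and its CG level, 68.5% and 40%, was also below the others' lowest of 79.7%. AT2G04031 had 2.63% and 5% against 5.56% to 47.6%, and its CG level, 65.6% and 58.8%, was likewise below the lowest of 66.9%. Of all 67 protein-coding genes below the others, 36 were at 0 in 6244 and the median difference was only -0.475 points, a small change for most of them.

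**Figure D4:**
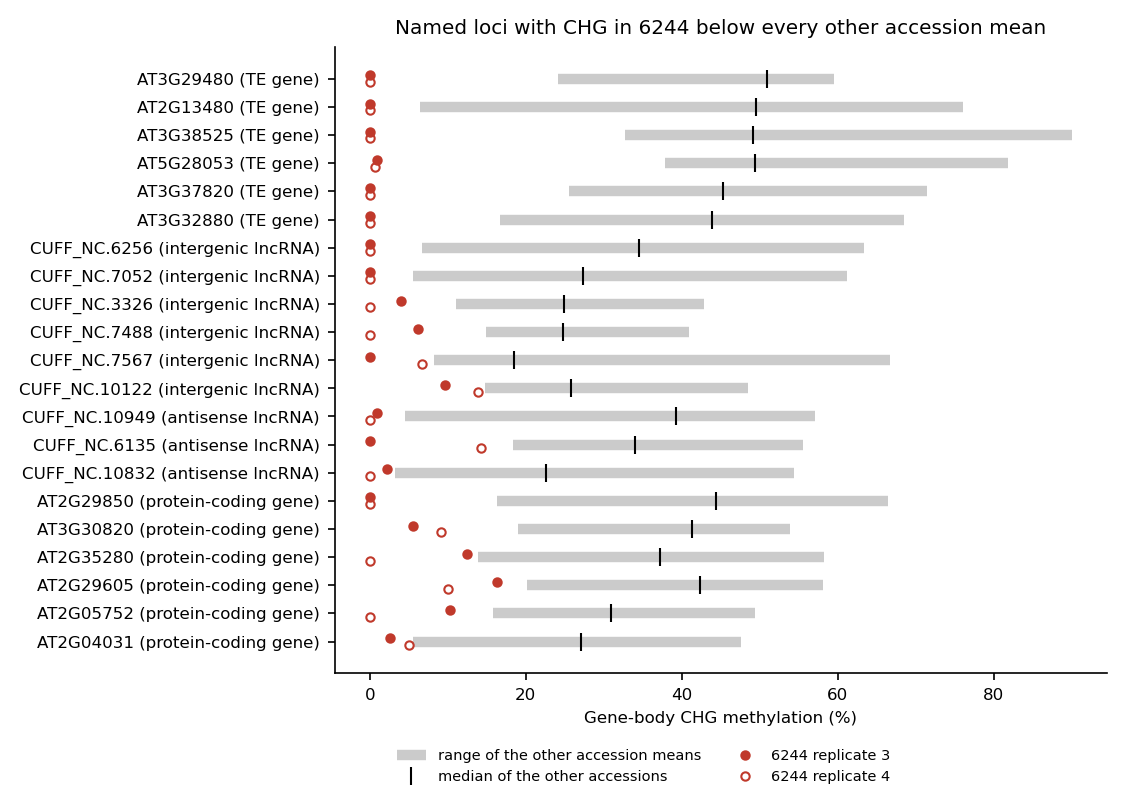
Gene-body CHG methylation in percent (horizontal axis) of the named TE genes, lncRNA loci and protein-coding genes (rows) that were below all other accessions in 6244. Red points are the 2 libraries of 6244, grey bars the range and black ticks the median of the other accession means; AT5G28053 is at 0.899% and 0.719% against a lowest of 37.9%, and AT2G04031 is at 2.63% and 5% against a lowest of 5.56%.

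In promoter windows the limma test called 7 of 39196 lower in CHG (0.0179%) and 919 higher (2.34%), of which 699 belonged to protein-coding genes. As for gene bodies, the lower and higher counts are not compared, since a promoter near 0 elsewhere has no room to be lower. Both libraries were below all others at 130 promoters (0.332%) and above at 91 (0.232%), and of these 6 and 41 belonged to protein-coding genes. The first of the 6, at AT2G11778 (gene at chromosome 2, 4728072 to 4728239, +), had 8.70% and 0% against 17.6% to 59.4%. AT1G37010 was at 0% against 5% to 59.7%, AT4G03580 at 0% and 8.33% against 11.1% to 58.1%, and AT2G11620 at 0% against 5% to 50%. AT2G05752 was low in its promoter, at 7.41% and 0% against 11.8% to 62.5%, as it was in its body. In the authors' annotation, 30 promoters (0.102%) were below and 52 (0.177%) above all others. Of the 1189 promoters of intergenic lncRNA loci, 2 (0.168%) were below and 4 (0.336%) above. Of the 2 below, CUFF_NC.31 had 38.1% and 27.3% against 45% to 84.7%, and CUFF_NC.9940 had 0% and 11.1% against 11.6% to 60%.

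Of the 212 Araport11 gene bodies with CHG above all other accessions (0.55% of all), 163 were protein-coding genes. They made up 0.632% of the 25775 protein-coding genes with values, near the share over all gene bodies. Their median difference from the others was only 1.34 points, and those named below have the widest gaps. The 9 TE genes made up 0.388% of their class. The TE gene AT1G35465 (chromosome 1, 13046928 to 13047661, +) had CHG levels of 42.1% and 50.9%, where no other accession exceeded 1.49%. Its CG level was 91.0% and 78.7%, where the others reached at most 8.71%, and its CHH level 4.79% and 6.76%, where they reached at most 0.719%. All 3 contexts were above the 30 other accessions with a value at this locus. AT3G43863 had CHG levels of 76.9% and 71.4% against 12.5% to 63.1%, and AT3G43147 had 85.7% and 75% against 20% to 70.8%.

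Of protein-coding genes, AT1G27550 (chromosome 1, 9568813 to 9569330, -) had CHG levels of 68.8% and 62.4%, just above a highest of 61.0% elsewhere, although the others' median was 1.32%. At least 1 other accession was thus close to it. AT5G35927 (chromosome 5, 14065688 to 14066173, -) had 42.9% and 75% against a highest of 18.1%. The intergenic lncRNA locus above all others, CUFF_NC.792, had only 3.64% and 4.55%, against at most 3.03%.

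In CG, limma called 95 of 42742 gene bodies lower (0.222%) and 805 higher (1.88%), and 672 of the latter were protein-coding genes. The median gene of the 672 had a CG level of 18.1% in 6244 and 0.692% elsewhere. Their CHG levels showed no such shift, with a median difference of 0, with 283 above and 264 below the others' median. AT3G05820 (INVH in the RefSeq table), named after its values were seen, had CG levels of 62.0% and 61.5% where the others had at most 14.4%, with CHG at 0.450% and 0.549%. In CHH, limma called 5 of 43856 gene bodies lower (0.0114%) and 461 higher (1.05%). Of these, 301 were TE fragments, with a median length of 363 bp against 523 bp for all fragments with values, and 56.1% of them lay in TE-rich bins against 65.8% of all fragments.

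Genes that make, keep or remove DNA methylation were looked up in a list of 33, of which 31 had gene-body values. These are levels of methylation on the genes, not of their activity. None of these gene bodies had both libraries beyond the other accession means in CHG or CHH. By the mean of its libraries, 6244 was just below the others' lowest in CHG at ROS1, at 0.397% against 0.444%. In CHH it was just below at DML2, at 0.182% against 0.222%, and just above the highest at DRD1, at 0.820% against 0.798%. In promoter windows, 27 had CHG and CHH values, and limma called 1 higher in each. Over all protein-coding promoters it called 3.10% higher in CHG and 1.86% in CHH, and over all Araport11 promoters 1.93% in CHH. CMT3, the CHG methyltransferase, had gene-body CHG levels of 0.570% and 0% against a median of 0.592% and CG levels of 17.3% and 7.74% against 3.02% to 19.4%. SUVH4, which places the histone mark that CMT3 reads, had CG levels of 39.8% and 41.7% against 6% to 42.4%. In their gene bodies neither gene stood apart. The promoter called in CHH was that of SUVH4, at 0% in replicate 3 and 5.56% in replicate 4 against a highest of 1.92%. The promoter called in CHG was that of DME, also on the list, at 0% and 6.25% against a highest of 3.42%. In each, only replicate 4 was above 0.

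3 of the 31 were above all others in CG, as were 3.91% of all Araport11 gene bodies and 5.98% of protein-coding genes, and limma called 1 of the 31 higher, against 2.59% of protein-coding genes. 26 of 31 lay above the others' median, as did 67.8% of protein-coding genes. Nothing particular to the list is read from these counts. DRM2, the methyltransferase of new CHH methylation, had 56.0% and 52.9% against 11.6% to 35.5% and a median of 24.2%, and was the one called by limma. MET1, which copies CG methylation, had 47.2% and 44.1% against 0.282% to 40.7% and a median of 11.7%. DRD1, a chromatin remodeller that works with DRM2, had 69.1% and 70.5% against 9.92% to 62.1%. CMT2, which methylates CHH in long elements, was on the low side at 11.4% and 14.8% against a median of 22.3%. IBM1, a demethylase of H3K9 that keeps CHG methylation out of genes, had CG levels of 57.9% and 51.6% against a highest of 52.6% and CHG levels of 0.172% and 1.32% against a median of 2.47%.

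**Figure D5:**
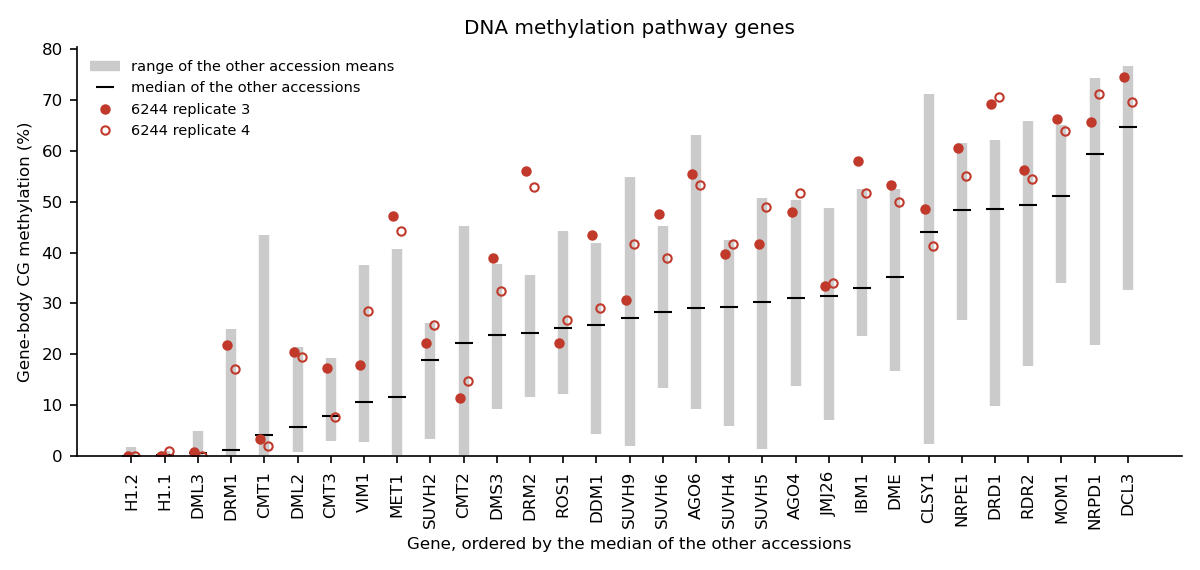
Gene-body CG methylation in percent (vertical axis) of 31 genes of the DNA methylation pathway, ordered by the median of the other accessions (black dashes, with grey bars for their range). The libraries of 6244 (red) are above the range at DRM2, MET1 and DRD1, with 56.0% and 52.9% at DRM2.

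Known epialleles, loci whose methylation varies heritably between lines, had gene-body values in 9 of 9 cases and promoter CHG values in 7. At none were both libraries beyond every other accession mean. The FWA promoter had CHG levels of 50% and 22.2% against a highest of 31.4%, so its mean of 36.1% was above the others through replicate 3 alone. QQS, a gene that regulates starch, was unmethylated in CG, at 0% in both libraries, where the others had a median of 83.9%. PAI1 and PAI2, genes of tryptophan synthesis that are methylated in lines with a repeated copy, were methylated in 6244. PAI1 had CHG levels of 42.1% and 19.4% and CG levels of 70% and 100%, and PAI2 had 56.7% and 42.9% in CHG and 95.1% and 88.1% in CG. The others' CHG medians at these 2 genes were 0.581% and 0.781%, with highest values of 60.2% and 74.6%, so other accessions carry them methylated too. The PAI genes are near copies of each other, and how reads were shared between them is unknown. Of 9 copies of the ONSEN and EVADE retrotransposons, 1 had values, the EVADE copy AT5G17125, with CHG levels of 46.2% and 26.3% against 0% to 50%.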

How the data were processed

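The authors deposited 12 tables of methylation fractions (0 to 1) per locus and library, 1 for each of 3 contexts, gene body or promoter window, and 2 annotations (Araport11 and their own). Reads were paired 100 bp, per the labels' protocols, and the genome build was TAIR10, per the submitters' processing notes. No source used here names the aligner, the caller or the formula. No column was left out. The members, lists and splits were chosen with earlier results of these data known.

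Where CHH read exactly 1, the locus was taken as having no data in that library. CHG readings of exactly 1 were likewise dropped, as were loci whose CG reading was 1 in all libraries left. CHG readings of 0 were kept, so where reads are few, fully methylated readings were lost and unmethylated ones were not. The effect of this CHG step apart from the CHH rule was not tested. 15.9% of Araport11 gene-body CHH values were exactly 1. Fractions were averaged over loci per library, then over the libraries of an accession. Single loci were compared with limma 3.58.1 in R 4.3.3 (6244 against the 31 other accession means, Benjamini-Hochberg adjustment over each table, adjusted p under 0.05). On simulated data for Araport11 CHG (38516 loci), shifts of 5 SDs were recovered in 68% of cases and shifts of 3 SDs in 11%. In that run 2 unchanged loci were called. Whether these figures hold for the real levels, which cannot fall below 0, was not tested. With 1 accession on one side, its own spread does not enter the limma test. Named loci are those with both 6244 libraries beyond every other accession mean, ordered by the 6244 mean minus the others' median, the first few of each class. Locus classes were rebuilt with bedtools 2.31.1 (overlap of at least 1 bp). Gene symbols are RefSeq's (assembly TAIR10.1). Python 3.11.15, NumPy 2.4.6, pandas 2.3.3 and matplotlib 3.10.9 were used. Replicates come from separate rounds of growth, and replicate numbers pair libraries because the labels tie them to a round. In TE gene CHG, round 3 was below round 4 in 18 of 23 other accessions with both, by 0.624 ± 0.673 points (SD).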

Additional observations from a re-analysis of the deposited data

How the results depend on the processing

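Of 161 alternative values of class and split levels, 130 kept their direction and moved by less than the SD between libraries, 23 moved further and 8 changed sign. Depth limits every locus, since no coverage was given. Values as deposited were taken over all loci of a class or group, without the filter on missing values, so the set of loci changed too. With values as deposited, the differences from the others were -4.91 points in TE gene CHG, -0.0753 in TE fragment CHG, -0.208 in protein-coding CHG, -1.43 in intergenic and -0.330 in antisense lncRNA CHG, 2.26 in TE fragment CHH, 0.0746 in TE gene CHH (turned) and 2.72 in CHG of the fragments with at least 20% CHH. Medians over loci gave -8.89, -0.848, -0.0172, 0 and 0 for the 5 CHG classes in the same order, 4.23 in protein-coding CG, and turned the CHH differences of TE fragments to -0.321 and of intergenic lncRNA to -0.0249. Requiring a value in every library gave -0.188 in protein-coding and -0.206 in antisense CHG, 5.11 in protein-coding CG, 3.42 in CHG of the high-CHH fragments and, turned, -0.196 in TE gene CG. High-CHH fragments of at least 500 bp differed by 5.44 points in CHH.

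Keeping only loci above 0 in both 6244 libraries, added after the data were seen, picks loci by 6244's own values and so raises it. It gave -2.11 in TE fragment CHG and turned protein-coding CHG to 0.189, intergenic lncRNA CHG to 0.0136 and antisense lncRNA CHG to 0.681. The cause of the other changes was not tested. The replicate block over growth rounds 3 and 4 gave -6.82 points in TE gene CHG and 4.23 in protein-coding CG, and changed no direction and no count by over 1.5 times. Leaving out replicates moved TE gene CG between -0.292 (without replicate 3) and 0.632 (without replicate 4).

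Counts of called loci moved more. For CHG in Araport11 (28 lower, 284 higher), the lower count was 43 as deposited, 16 with a value in every library, 49 on the arcsine scale and 330 by non-overlap, and the higher count 185 with a value in every library and 99 on the arcsine scale. In the authors' annotation the lower count was 16, 5, 15 and 133 in that order, and the higher 39 on the arcsine scale. For CG, the lower count was 280, 39 and 38 and the higher count 192 on the arcsine scale and 1673 by non-overlap. For CHH, the lower count was 11, 3 and 53, then 10 without accessions with 1 library, 3 with a trend in the prior variance (added later) and 395 by non-overlap; the higher was 170 and 100. Leaving out replicates gave 25 to 54 lower and 236 to 541 higher in CHG, 7 to 16 and 224 to 650 in the authors' annotation, 78 to 184 lower in CG, and 3 to 15 lower and 396 to 785 higher in CHH. The highest counts came without replicate 3 or 4, where 6244 is 1 library.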
